A study of Homo sapiens with 9 samples.

Results

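The feedback inhibitors of MAP kinase and growth factor signalling were examined in HMEC-1, an established and immortalised line of human dermal microvascular endothelial cells. They were selected by gene symbol from the table of counts, as 10 of its 29740 genes: the phosphatase genes DUSP1, DUSP4, DUSP5, DUSP6 and DUSP10, the Sprouty genes SPRY1, SPRY2 and SPRY4, and the Sprouty-related genes SPRED1 and SPRED2. The list was drawn up with the fold changes of these same libraries known, so every fold change of the 10 genes is given as a description. No p-value is printed for them, and a call or an adjusted p under 0.05 says only on which side of the threshold the fit put a gene. RNA had been sequenced from cells treated with 50 µM trimethylamine-N-oxide (TMAO, a metabolite that gut microbes help to produce) for 24H or for 48H, and from cells labelled CTRL, with 3 libraries in each of the 3 groups. All groups were of the same line and had been kept in serum-starved medium during treatment. The study pooled its controls over the 2 time-points, so TMAO and time in culture cannot be told apart in a difference from CTRL. The same holds for a difference between 48H and 24H, since these groups differ in both.

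Growth factors bind receptor tyrosine kinases, which activate RAS, and RAS passes the signal through RAF and MEK to the kinase ERK. Sprouty and SPRED proteins dampen the pathway near the receptor, RAS and RAF. The dual-specificity phosphatases (DUSPs) remove phosphate from MAP kinases: from ERK at the end of this pathway, and from JNK and p38, which belong to separate cascades. Many of these inhibitors are themselves transcribed in response to the pathway, which makes them a negative feedback loop. In endothelium the pathway carries the signals of VEGF and FGF, and Sprouty and SPRED proteins are known to restrain vessel growth.

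Total counts were 29160857 to 30069533 in CTRL, 32179412 to 36927364 at 24H and 25205753 to 32563496 at 48H. The endothelial markers PECAM1, CDH5 and VWF were abundant in every library (lowest values 8439, 16795 and 2342 normalised counts), and all 14 endothelial markers examined passed the expression filter. The summed level of the 14 was 93333 to 103530 in CTRL, 92900 to 98675 at 24H and 82264 to 89438 at 48H. Of the 14, 8 had an adjusted p under 0.05 on the lower side at 48H (edgeR, against 5.29% of all genes). On the higher side the number was 0 (5.14% of all genes). A normalised count here is a count divided by its library's scaled size and multiplied by the mean scaled size of the 9 libraries. The leukocyte markers PTPRC and CD3E were at or near 0, with at most 3.02 and 0 normalised counts. Of the 7 leukocyte markers 2 passed the expression filter, CD68 (553 to 669 normalised counts over the 9 libraries) and CD14 (23.5 to 39.9), and the summed level of the 7 was 593 to 678 in CTRL, 656 to 696 at 24H and 675 to 716 at 48H. Counts of DCN and LUM, markers of fibroblasts, were at most 2.24 and 1.16, while COL1A1 and COL1A2, from the same list of 10 fibroblast and mural markers, were high. The summed level of that list was 31062 to 35923 in CTRL, 31310 to 33760 at 24H and 20620 to 22615 at 48H, so it moved with the 48H group. COL1A1 (log2 fold change -0.67, edgeR adjusted p = 2.2e-05) and COL1A2 (-1.08, adjusted p = 5.9e-06) fell at 48H, ACTA2, the actin of mural cells, rose (0.74, adjusted p = 0.00194), and RGS5 (0.20, adjusted p = 0.525) and CSPG4 (0.0051, adjusted p = 0.971) did not pass. These genes were chosen after their values were seen. The part of the endothelial and of the fibroblast and mural markers in the results at 48H was not tested.

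A pair of libraries stood apart in their counts of ribosomal RNA genes or of epithelial markers. In TMAO 24H replicate 1, ribosomal RNA genes took 31.5% of the counts, while their share was 1.64% to 7.46% elsewhere. In TMAO 48H replicate 3, the epithelial markers EPCAM, KRT5 and KRT14 were at 37.97, 125 and 67.9 normalised counts, against 202 to 290, 763 to 1630 and 552 to 1067 in the other 8. CDH1 was low as well, at 34.5 against 84.6 to 156. KRT19, the last of the 5 epithelial markers, was not, at 146 against 135 to 236. The summed level of the 5 epithelial markers was 2061 to 3192 in CTRL, 1909 to 2354 at 24H and 412 to 3136 at 48H. The values of the 10 inhibitors at each time-point are therefore also given without the library concerned.

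**Figure D1:**
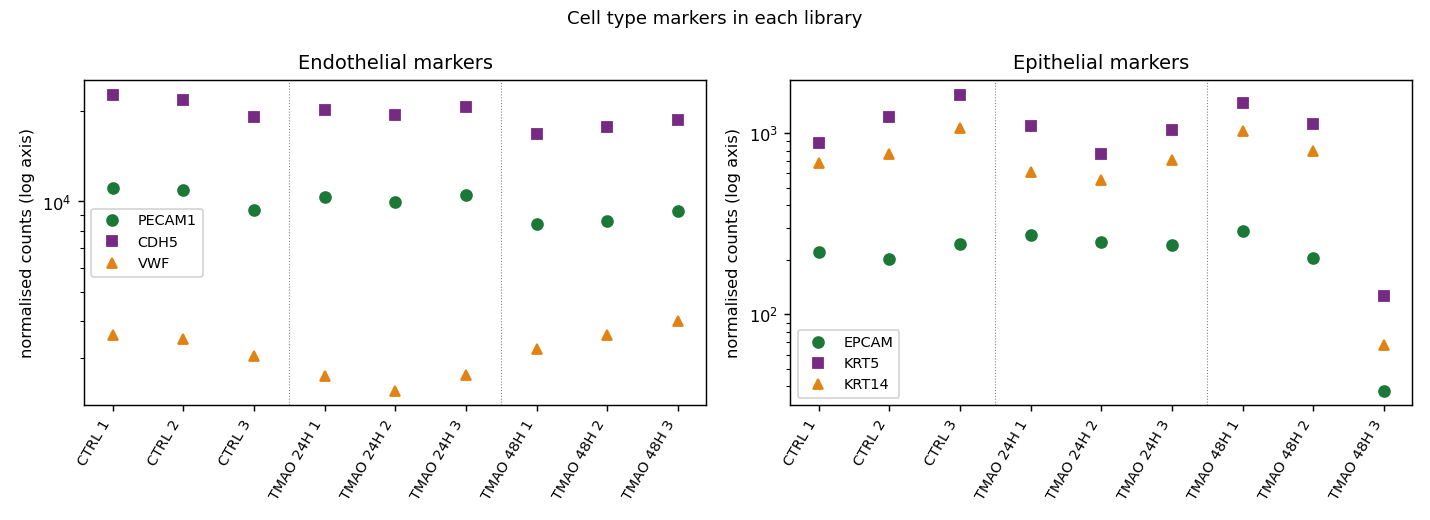
Normalised counts (log axis) of 3 endothelial markers (left) and 3 epithelial markers (right) in each of the 9 libraries, with dotted lines between the groups. The endothelial markers are high throughout, while the 3 epithelial markers shown lie far lower in TMAO 48H replicate 3 than in the other 8 libraries (KRT14 at 67.9 against 552 to 1067). KRT19, not shown, was within the range of the other 8.

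The starts of the DUSP1 and SPRY2 genes are shown because these were the only genes among the 10 called lower at 24H, as described below. RefSeq windows of 300 bases around annotated transcription starts (GRCh38.p14) were matched by symbol for 8 of the 10 genes and were not matched for DUSP4 and DUSP5. The windows were searched on both strands for TGACGTCA (the cAMP response element, CRE), TGANTCA (an AP-1 site), CCGGAA (an ETS core), GGGCGG (an Sp1 core) and the CArG box of serum response factor. Capitals mark matches to the CRE and to the ETS core, and both sequences are of the minus strand, 5′ to 3′.
DUSP1, chr5:172771146-172771445: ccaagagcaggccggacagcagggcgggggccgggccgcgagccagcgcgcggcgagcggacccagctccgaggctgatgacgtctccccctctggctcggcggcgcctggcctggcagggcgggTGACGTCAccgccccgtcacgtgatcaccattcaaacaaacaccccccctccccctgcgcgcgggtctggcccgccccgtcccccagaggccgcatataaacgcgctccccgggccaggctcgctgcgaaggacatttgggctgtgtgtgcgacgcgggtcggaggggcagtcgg
SPRY2, chr13:80341077-80341376: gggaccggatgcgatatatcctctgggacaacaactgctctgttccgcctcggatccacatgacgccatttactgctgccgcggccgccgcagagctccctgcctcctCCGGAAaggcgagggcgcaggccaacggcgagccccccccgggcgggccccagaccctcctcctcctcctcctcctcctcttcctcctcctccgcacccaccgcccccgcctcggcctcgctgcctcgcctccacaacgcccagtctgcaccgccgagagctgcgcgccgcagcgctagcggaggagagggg
The DUSP1 window held a CRE, which started at position -125 from the annotated transcription start and which 1.84% of the 34943 windows in the table hold. It also held 4 Sp1 cores (44.9% of windows hold at least 1) and no match to the AP-1 site (7.72%), the ETS core (17.2%) or the CArG box (1.30%). The SPRY2 window held an ETS core at position -142 and 2 Sp1 cores. SPRY2 had a further pair of windows, at chr13:80340059-80340358 and chr13:80339610-80339909, with 0 and 1 Sp1 cores and no match to the other motifs. These matches describe the letters in the windows alone.

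DUSP1, DUSP5, DUSP6 and SPRY2 were lower than every control at 24H and higher than every control at 48H. DUSP4 was the only gene of the 10 that lay below every control at 48H, and SPRED1 and SPRED2 overlapped with the controls at both time-points. The largest spans were those of DUSP1 and SPRY2, which were 2.34-fold and 1.97-fold higher at 48H than at 24H. A lower number of cells in a given state and less RNA per cell cannot be told apart in these bulk libraries.

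**Figure D2:**
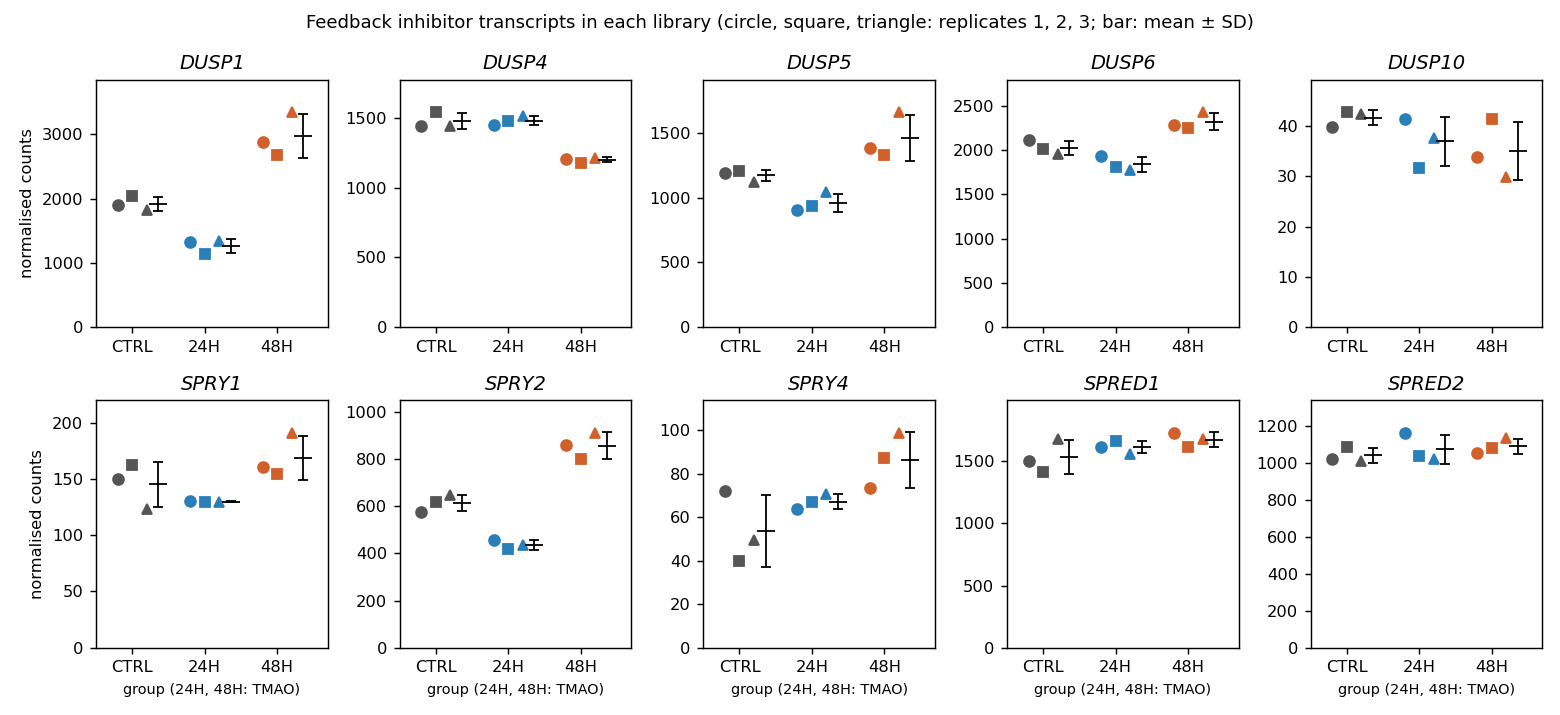
Normalised counts (axes from 0, one panel per gene) of the 10 inhibitors in CTRL and after TMAO for 24H or 48H, with a symbol per replicate and the mean ± SD of 3 libraries beside them. DUSP1 and SPRY2 go down at 24H and up at 48H with no overlap between groups, DUSP4 is lower at 48H alone, and SPRED1 and SPRED2 overlap throughout.

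DUSP1 encodes an inducible nuclear phosphatase that acts on p38, JNK and ERK. Its normalised counts were 1899, 2039 and 1821 in CTRL, 1320, 1140 and 1340 at 24H and 2882, 2679 and 3348 at 48H. No group overlapped with another, since the highest 24H library was at 1340.2, the controls spanned 1821 to 2039 and the lowest 48H library was at 2679. The means were 1920 ± 111 in CTRL, 1267 ± 110 at 24H and 2970 ± 343 at 48H (SD, n = 3 each). The log2 fold change was -0.60 at 24H (standard error 0.0804, 0.660-fold) and 0.63 at 48H (standard error 0.0802, 1.55-fold). Without TMAO 24H replicate 1 the first was -0.63, and without TMAO 48H replicate 3 the second was 0.53.

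DUSP5 encodes a nuclear phosphatase that is specific for ERK. It was measured at 1191, 1208 and 1122 normalised counts in CTRL, at 909, 936 and 1042 at 24H and at 1383, 1334 and 1664 at 48H. The 3 groups did not overlap, but the distance between the highest 24H library and the lowest control was small (1042 against 1122). The log2 fold changes were -0.29 at 24H (standard error 0.0788) and 0.32 at 48H (standard error 0.0787). TMAO 48H replicate 3 had the highest DUSP5 of all, and without it the value at 48H was 0.21 and no longer had an adjusted p under 0.05. Without TMAO 24H replicate 1 the value at 24H was -0.25.

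DUSP6 encodes the cytoplasmic counterpart, which is also specific for ERK. Its normalised counts were 2115, 2013 and 1954 in CTRL, 1937, 1814 and 1776 at 24H and 2281, 2253 and 2433 at 48H. The groups again did not overlap, although the shifts were the smallest of the 4 genes with this order. The log2 fold changes were -0.14 at 24H (95% interval -0.25 to -0.031) and 0.20 at 48H (95% interval 0.089 to 0.30). The value at 24H was -0.17 without TMAO 24H replicate 1. The value at 48H was 0.16 without TMAO 48H replicate 3 and then no longer had an adjusted p under 0.05.

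DUSP4 encodes a nuclear phosphatase that acts on ERK and JNK. The counts were 1444, 1542 and 1442 in CTRL, 1447, 1474 and 1513 at 24H and 1207, 1177 and 1211 at 48H. At 24H the libraries lay within the range of the controls, and at 48H all 3 lay below every other library. The log2 fold change was 0.0022 at 24H (95% interval -0.097 to 0.10) and -0.30 at 48H (95% interval -0.40 to -0.20, 0.812-fold). It was 0.018 at 24H without replicate 1 and -0.31 at 48H without replicate 3.

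DUSP10 encodes a phosphatase that prefers p38 and JNK, and it was scarce, with 26 to 47 counts per library before normalisation. Its normalised counts were 39.9, 42.8 and 42.3 in CTRL, 41.5, 31.7 and 37.6 at 24H and 33.8, 41.4 and 29.9 at 48H, and all groups overlapped. At this depth the 95% intervals of the log2 fold change ran from -0.62 to 0.27 at 24H and from -0.69 to 0.21 at 48H, and both took in 0 as well as a 1.4-fold fall. The log2 fold change was -0.18 at 24H and -0.26 without replicate 1 of that group, and it was -0.24 at 48H and -0.14 without replicate 3.

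SPRY2 encodes the Sprouty protein best known for restraining FGF and VEGF signalling to ERK. Its normalised counts were 576, 616 and 648 in CTRL, 457, 416 and 433 at 24H and 861, 798 and 911 at 48H. Every 24H library was below every control and every 48H library above, and the nearest values were 457 and 576 on the lower side and 648 and 798 on the upper side. The mean was 613 ± 35.9 in CTRL, 436 ± 20.5 at 24H and 857 ± 56.9 at 48H (SD, n = 3 each). The log2 fold changes were -0.49 at 24H (standard error 0.0708, 0.710-fold) and 0.48 at 48H (standard error 0.0705). The latter value, 0.482 before further rounding, lay just under the 1.4-fold threshold, which is 0.485 on this scale. Without TMAO 24H replicate 1 the value at 24H was -0.53, and without TMAO 48H replicate 3 the value at 48H was 0.44.

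SPRY1, a close relative in sequence and role, was less abundant and had smaller fold changes. It was at 150, 162 and 123 normalised counts in CTRL, at 129.95, 129.71 and 129.81 at 24H and at 161, 154 and 191 at 48H. The 24H libraries lay within the range of the controls, whereas all 48H libraries were above all 24H libraries. The 95% intervals of the log2 fold change included 0 at 24H (-0.44 to 0.12) and at 48H (-0.066 to 0.50). Without TMAO 24H replicate 1 the value at 24H was -0.16, and without TMAO 48H replicate 3 the value at 48H was 0.12.

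SPRY4 was the scarcest Sprouty gene of the list, with 40 to 99 counts per library before normalisation. Its normalised counts were 72.0, 39.8 and 49.4 in CTRL, 63.9, 67.1 and 70.7 at 24H and 73.3, 87.2 and 99.0 at 48H. The controls spread widely (coefficient of variation 30.8%), and only a narrow gap (72.0 against 73.3) separated the highest control from the lowest 48H library. The log2 fold change at 48H was 0.68 (95% interval 0.23 to 1.13), the largest of the 10 genes at that time-point, but it did not have an adjusted p under 0.05. It was 0.58 without TMAO 48H replicate 3, and the value at 24H was 0.36 without TMAO 24H replicate 1.

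SPRED1 and SPRED2 encode membrane-bound inhibitors of RAS and RAF activation, and SPRED1 does so by bringing the RAS inactivator neurofibromin to the membrane. SPRED1 was at 1505, 1410 and 1679 normalised counts in CTRL, 1611, 1659 and 1561 at 24H and 1729, 1613 and 1678 at 48H. For SPRED2 the values were 1022, 1086 and 1013 in CTRL, 1163, 1035 and 1021 at 24H and 1053, 1081 and 1135 at 48H. The libraries of the 3 groups were interleaved for both genes. The 95% intervals of the log2 fold change at 48H were -0.0012 to 0.26 for SPRED1 and -0.062 to 0.20 for SPRED2, which lie under the 1.4-fold threshold of 0.485. The values at 48H without replicate 3 were 0.13 for SPRED1 and 0.038 for SPRED2, and those at 24H without replicate 1 were 0.074 and -0.016. The deposited counts of SPRED2 were not whole in any of the 9 libraries (tolerance 0.01), while those of the other 9 genes were whole in all 9.

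**Figure D3:**
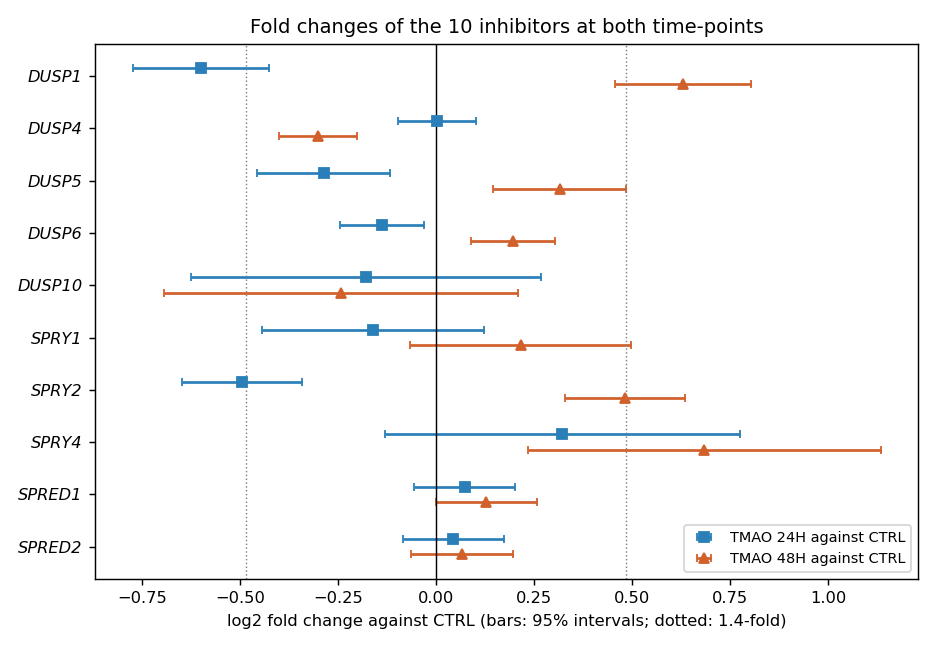
Log2 fold change against CTRL of each inhibitor after TMAO for 24H (squares) and 48H (triangles), with 95% intervals from edgeR and dotted lines at a 1.4-fold change. DUSP1, DUSP5, DUSP6 and SPRY2 lie on the left at 24H and on the right at 48H, and the scarce DUSP10 and SPRY4 have the widest intervals.

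Across all genes the same fit gives the background for these counts. A gene was called when its adjusted p was under 0.05 (edgeR's quasi-likelihood test with Benjamini-Hochberg adjustment over 14740 genes) and its change at least 1.4-fold. All 10 inhibitors passed the expression filter. Since the list was chosen with these contrasts known, nothing is read from the counts that follow.

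At 24H, 2 of the 10 genes were called lower (DUSP1 and SPRY2), against 0.0475% of all genes, and the same 2 had an adjusted p under 0.05 at any fold change, against 0.0950%. None of the 10 was called higher or had an adjusted p under 0.05 on the higher side in edgeR or in DESeq2, and 0 had an unadjusted p under 0.05 on that side. With single libraries left out in turn, DUSP1 was called in 3 of 6 fits and SPRY2 in 2 of 6, and neither was called without CTRL replicate 2 or without TMAO 24H replicate 2. Their log2 fold changes in these 6 fits ran from -0.64 to -0.53 for DUSP1 and from -0.54 to -0.45 for SPRY2. Over all genes DESeq2 called 11 lower and 0 higher of 13128 at 24H, and at any fold change it had 52 lower and 3 higher. In edgeR the share of all genes on the higher side was 0% for calls and 0% at any fold change. The libraries of 4 of the 10 lay below every control (7.52% of all genes) and those of 0 above (6.73%). The median log2 fold change was -0.15 over the 10 genes and -0.00042 over all genes tested.

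At 48H, DUSP1 alone was called higher (0.882% of all genes) and none was called lower (0.916%, with 1 of the 10 lower at an unadjusted p under 0.05). At any fold change 4 had an adjusted p under 0.05 on the higher side (DUSP1, DUSP5, DUSP6 and SPRY2, against 5.14%) and 1 on the lower side (DUSP4, against 5.29%). DESeq2 gave these same counts. The libraries of 5 lay above every control, with SPRY4 the additional gene (14.7% of all genes), and those of DUSP4 below (13.0%). Without TMAO 48H replicate 3, which had the highest 48H value of DUSP1, DUSP5, DUSP6, SPRY1, SPRY2 and SPRY4, the number with an adjusted p under 0.05 on the higher side was 2 in place of 4. The median over the 10 genes was 0.21 with that library and 0.14 without it, and 0.0040 over all genes.

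TMAO 48H and TMAO 24H were also compared directly, which leaves the controls out. The groups differ in time in culture as well as in TMAO exposure, and these cannot be told apart here either. In this contrast 3 of the 10 were called higher at 48H (DUSP1, DUSP5 and SPRY2, against 0.862% of all genes) and 0 lower (0.848%), with edgeR and with DESeq2, and 1 was lower at an unadjusted p under 0.05. At any fold change 4 had an adjusted p under 0.05 on the higher side (3.77%) and 1, DUSP4, on the lower side (3.77%). The libraries did not overlap for 6 higher genes (14.7% of all genes) and for DUSP4, which was lower (12.9%). The log2 fold change was 1.23 for DUSP1 (standard error 0.0812), 0.98 for SPRY2 (standard error 0.0712), 0.60 for DUSP5 (standard error 0.0789) and 0.33 for DUSP6 (standard error 0.0498). These values were 1.135, 0.93, 0.50 and 0.30 without TMAO 48H replicate 3, and 1.26, 1.01, 0.56 and 0.37 without TMAO 24H replicate 1. DUSP4 went the other way, at -0.30 (standard error 0.0459).

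The make-up of each inhibitor class shifted with these changes. Levels per length (counts per kilobase of mean transcript length, scaled to the same sum in every library over all genes with a length) allow the genes to be set beside each other. In CTRL the order was DUSP6 (66.8 ± 3.17), DUSP1 (62.7 ± 3.41), SPRED2 (45.8 ± 1.55), DUSP5 (30.3 ± 1.20), SPRED1 (24.3 ± 2.18), DUSP4 (22.9 ± 0.767), SPRY2 (16.8 ± 0.884), SPRY1 (5.56 ± 0.768), SPRY4 (1.35 ± 0.428) and DUSP10 (1.03 ± 0.0299), all as mean ± SD over 3 libraries. Neighbours in this order did not overlap between libraries, with 3 exceptions: DUSP6 with DUSP1, SPRED1 with DUSP4, and SPRY4 with DUSP10. DUSP1 was at rank 3 at 24H (41.3 ± 3.56), below SPRED2, and was at rank 1 at 48H (98.3 ± 11.6). With the longest transcript in place of the mean length, DUSP1 ranked 1 in every group, so its rank depends on the length used.

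Within the 5 DUSP genes, DUSP1 made up 33.4%, 35.2% and 33.7% of the summed level in CTRL, 28.0%, 25.7% and 28.5% at 24H and 41.9%, 40.6% and 43.4% at 48H. The share of DUSP4 moved in the opposite direction, with means of 12.5% in CTRL, 15.2% at 24H and 8.09% at 48H. Shares of a sum depend on one another: the mean level of DUSP4 itself was 22.9 in CTRL, 22.9 at 24H and 18.9 at 48H. DUSP5 held 16.5%, 16.5% and 16.3% on average. The groups of DUSP1 and of DUSP4 did not overlap on this scale. With the longest transcript the mean share of DUSP1 was 44.2%, 36.8% and 52.5%, in the same order. The summed DUSP level was 184 ± 6.87 in CTRL, 150 ± 5.02 at 24H and 234 ± 20.0 at 48H (SD, n = 3 each).

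The ratio of DUSP1 to DUSP4 counts within a library needs no scaling between libraries. It was 1.32, 1.32 and 1.26 in CTRL, 0.912, 0.774 and 0.886 at 24H and 2.39, 2.27 and 2.77 at 48H. Counts of these 2 nuclear phosphatases, not scaled for transcript length, therefore changed rank at 24H, when DUSP4 exceeded DUSP1 in all 3 libraries. For DUSP5 and DUSP4 the crossing in counts came at 48H, when the ratio was 1.22 ± 0.136, against 0.795 ± 0.0254 in CTRL and 0.651 ± 0.0333 at 24H. On the length-scaled levels the group means did not cross. There DUSP1 was above DUSP4 at 24H (41.3 against 22.9), and DUSP5 was above DUSP4 already in CTRL (30.3 against 22.9).

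Among the 5 Sprouty and SPRED genes, SPRY2 made up 17.9% ± 0.789 of the summed level in CTRL, 13.0% ± 0.376 at 24H and 22.0% ± 0.703 at 48H. By mean transcript length SPRED2 was the largest component in every group, with 48.8%, 51.6% and 45.0%. With the longest transcript its mean share was 34.2%, 37.8% and 30.3% and that of SPRY2 was 30.4%, 23.2% and 36.0%, so SPRY2 exceeded it at 48H. The ratio of SPRED1 to SPRED2 counts was 1.48 ± 0.180 in CTRL, 1.51 ± 0.111 at 24H and 1.54 ± 0.0901 at 48H, and its libraries overlapped between all groups. The summed level of this class was 93.1, 93.6 and 94.7 in CTRL, 94.1, 90.2 and 89.3 at 24H and 105, 106 and 113 at 48H. Only the 48H group lay apart from the controls in that sum.

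**Figure D4:**
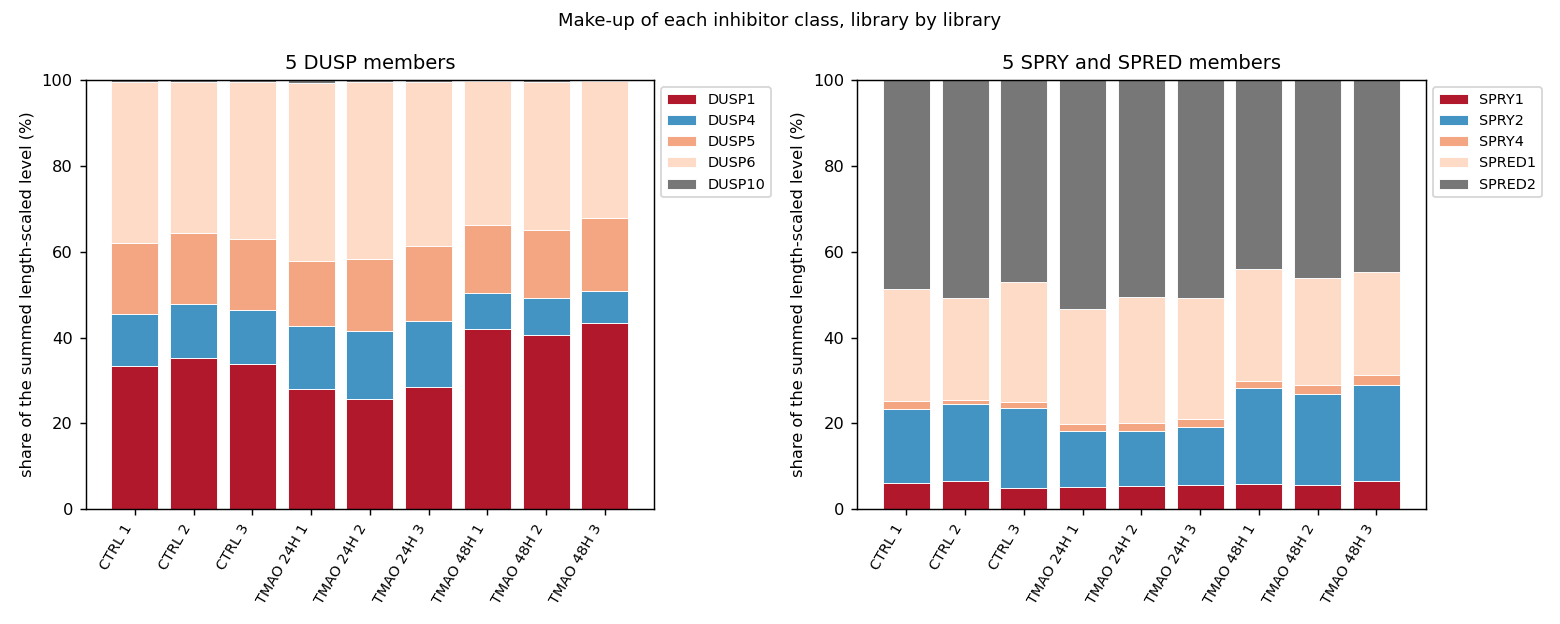
Share (percent) of the summed length-scaled level taken by each gene, for the 5 DUSP genes (left) and the 5 SPRY and SPRED genes (right), in each of the 9 libraries. The DUSP1 share runs from 25.7% at 24H to 43.4% at 48H, and the SPRY2 share likewise is lowest at 24H and highest at 48H.

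Patterns over the groups were compared by the distance between the 3 group means of log2-scaled counts, each centred on the gene's own mean. Among the 10 genes, DUSP6 and SPRY1 were the closest pair (0.0231), followed by SPRED1 and SPRED2 (0.0453). DUSP1 lay at 0.180 from SPRY2 and at 1.09 from DUSP4. Of 12320 other genes with a mean normalised count of at least 50, those closest to SPRY2 were NR4A1 (0.0236), CYR61 (0.0390), PSG4 (0.0798), GFRA1 (0.116) and PID1 (0.119), where the median distance was 0.687. NR4A1, an inducible nuclear receptor, was at 79.8, 112 and 97.7 normalised counts in CTRL, 72.8, 60.8 and 72.5 at 24H and 133, 118 and 151 at 48H. CYR61, a secreted matricellular protein, was far more abundant, with 32987 to 34710 in CTRL, 22344 to 24501 at 24H and 43049 to 49345 at 48H. Neither gene overlapped between groups, and both were picked for this pattern. Against CTRL, NR4A1 did not pass at 24H (edgeR adjusted p = 0.520) or at 48H (adjusted p = 0.0756), while CYR61 had an adjusted p under 0.05 at both.

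For DUSP1 the closest genes were PSG4 (0.110), ISG15 (0.168), CYR61 (0.175), ADPGK-AS1 (0.201) and NR4A1 (0.202), where the median was 0.866. ADPGK-AS1 is an antisense gene, whose reads cannot be told apart from those of its partner where the strand setting is not given, and its libraries ranged from 5.60 to 82.4 normalised counts at 24H, so its group means carry little weight. For DUSP5 they were HSBP1L1 (0.0193), ID4 (0.0253), JUN (0.0323), RP11-173B14.5 (0.0391) and C1QL1 (0.0392), where the median was 0.425. The distance uses group means alone. At 24H the libraries of HSBP1L1 (47.1 to 87.1 normalised counts), ID4 (103 to 140) and RP11-173B14.5 (31.7 to 50.1) overlapped with their controls, while those of JUN and C1QL1 did not. JUN, a subunit of the AP-1 transcription factor, was at 10678 to 11719 normalised counts in CTRL, 8748 to 9277 at 24H and 13092 to 14100 at 48H.

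The rest of the pathway was followed in 9 lists of 129 genes, none of them among the 10, of which 113 passed the expression filter. Over these 113, edgeR called 2 lower and 0 higher at 24H, 2 lower and 1 higher at 48H, and 0 lower and 6 higher at 48H against 24H. DESeq2 called these same numbers, and at an unadjusted p under 0.05 edgeR had 2 higher at 24H and 12 lower at 48H against 24H. At any fold change 4 were lower and 0 higher at 24H, and 6 were lower and 12 higher at 48H. DESeq2 had 8 lower and 0 higher at 24H at any fold change. At 48H against 24H edgeR had 6 lower and 15 higher at any fold change, and 3 lower and 8 higher without TMAO 24H replicate 1. The median log2 fold change over the 113 genes was -0.012 at 24H and -0.0089 at 48H. Of all genes edgeR called 0.0475% lower and 0% higher at 24H, 0.916% and 0.882% at 48H, and 0.848% and 0.862% at 48H against 24H. At any fold change the shares were 0.0950% and 0%, 5.29% and 5.14%, and 3.77% on each side. They are the background for the counts of each of the 9 lists below.

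Receptor tyrosine kinases stand at the top of the pathway, and 19 of 23 listed were tested. No receptor had an adjusted p under 0.05 at 24H in edgeR or DESeq2, with 1 at an unadjusted p under 0.05. At 48H 3 fell, all of them endothelial receptors and each by less than 1.4-fold. KDR, the main VEGF receptor of endothelium, changed by -0.27 on the log2 scale (adjusted p = 0.0110), TIE1 by -0.26 (adjusted p = 0.00569) and FLT4, the receptor of VEGF-C, by -0.24 (adjusted p = 0.0406). These 3 genes were chosen after their values were seen. KDR and TIE1 are also among the 14 endothelial markers, whose summed level was lower at 48H as given above, and the part of that in the receptor values was not tested.

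Adaptors and RAS proteins carry the signal from the receptor, and all 15 were tested. At 24H 0 passed in edgeR or DESeq2 (2 lower at an unadjusted p under 0.05), and at 48H 3 rose by less than 1.4-fold. FRS2, the docking protein of FGF receptors on which Sprouty proteins are known to act, rose by 0.30 on the log2 scale (adjusted p = 0.00412). PTPN11, the phosphatase SHP2, rose by 0.22 (adjusted p = 0.00450), and the RAS activator SOS2 rose by 0.14 (adjusted p = 0.0476). They too were chosen after their values were seen. Without TMAO 48H replicate 3 the number was 2, FRS2 and PTPN11.

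The RAF, MEK and ERK kinases and their scaffolds, 12 genes, had no member with an adjusted p under 0.05 in any of the 3 contrasts, in edgeR or in DESeq2. At an unadjusted p under 0.05 there were 0 at 24H, 1 lower and 1 higher at 48H and 0 at 48H against 24H. Of the JNK and p38 kinases and their activators, 10 of 11 were tested. MAPK13, a p38 isoform, fell from 191 ± 31.7 to 127 ± 26.9 normalised counts at 48H (SD, n = 3; log2 fold change -0.59, edgeR adjusted p = 0.0362) and was the only gene of the list called. MAPK14 (0.15, adjusted p = 0.0309) and MAPK9 (0.19, adjusted p = 0.0368), chosen after their values were seen, were higher at 48H with an adjusted p under 0.05, and 0 were without TMAO 48H replicate 3. MAPK13 did not pass at 48H in 4 of 6 fits with a library left out. Its edgeR adjusted p was 0.0824 without CTRL replicate 1, 0.116 without CTRL replicate 3, 0.0940 without TMAO 48H replicate 1 and 0.138 without TMAO 48H replicate 2.

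Other inhibitors of receptor, RAS and RAF signalling (21 of 24 tested) included 1 that was called. RASAL3, a RAS inactivator, was at 1032, 1129 and 1123 normalised counts in CTRL and at 690, 796 and 801 at 48H, with no overlap (log2 fold change -0.52, standard error 0.0647, adjusted p = 0.000351). Its 24H libraries, at 1007 to 1055, overlapped with the controls. Without TMAO 48H replicate 3 there were 2 called lower at 48H, with DOK3 (log2 fold change -0.77, adjusted p = 0.0490), chosen after its values were seen, beside RASAL3. The remaining relatives of the Sprouty and SPRED genes did not pass at 48H: SPRY3 had a log2 fold change of -0.39 (adjusted p = 0.172) and SPRED3 one of 0.25 (adjusted p = 0.140), both chosen after their values were seen.

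Of the other MAP kinase phosphatases, 3 of 5 were tested. DUSP8, which prefers JNK and p38, was at 262, 258 and 282 normalised counts in CTRL, 184, 206 and 217 at 24H and 289, 292 and 278 at 48H. The difference from CTRL did not pass at 24H (log2 fold change -0.40, adjusted p = 0.211) or at 48H (0.10, adjusted p = 0.535), whereas 48H exceeded 24H by 0.50 (adjusted p = 0.00447). DUSP16 rose by 0.23 at 48H (adjusted p = 0.0161), less than 1.4-fold, and was chosen after its values were seen. Among 12 atypical DUSPs, which lack the MAP kinase-binding domain, 0 passed at 24H in edgeR or DESeq2, with 0 at an unadjusted p under 0.05, and DUSP3 was the only one that passed at 48H (0.25, adjusted p = 0.00959).

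Transcripts known to follow ERK activity, other than the 10 inhibitors, numbered 9, all tested. None of them passed at 24H in edgeR, with 3 lower at an unadjusted p under 0.05 and 1 lower in DESeq2. FOSL1, an AP-1 subunit, rose by 0.23 at 48H (adjusted p = 0.0180) and was the only one to do so. It also was higher at 48H than at 24H (0.37, adjusted p = 0.000956), as was IER3, an early response gene (0.36, adjusted p = 0.00234), and 0 others of the list were. At 24H the values of FOSL1 (-0.14, adjusted p = 0.643) and IER3 (-0.27, adjusted p = 0.189) did not pass. The genes of this paragraph were chosen after their values were seen.

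Immediate early transcription factors, which growth factors and stress induce within minutes, had the most genes with an adjusted p under 0.05 at any fold change of the 9 lists in all 3 contrasts. At 24H 11 of the 12 tested were below their control mean, 4 with an adjusted p under 0.05 and 2 called, with a median log2 fold change of -0.30. The number with an adjusted p under 0.05 was 2 without TMAO 24H replicate 1, and 7 in DESeq2 with all libraries. FOS fell from 179 ± 15.8 to 81.2 ± 9.52 normalised counts (log2 fold change -1.14, adjusted p = 0.00300) and EGR1 from 2157 ± 108 to 1045 ± 177 (log2 fold change -1.05, adjusted p = 0.0107; SD, n = 3 each). EGR1 did not pass without CTRL replicate 1 (log2 fold change -1.05, adjusted p = 0.0518), CTRL replicate 2 (-1.01, adjusted p = 0.102) or TMAO 24H replicate 2 (-0.93, adjusted p = 0.0845), and FOS did not without TMAO 24H replicate 2 (-1.08, adjusted p = 0.0599). At 48H against 24H all 12 were higher, 8 with an adjusted p under 0.05 and 5 called: FOS, EGR1, ATF3, JUN and MYC. Without TMAO 24H replicate 1 these 5 were called and were the only ones with an adjusted p under 0.05. The values of FOS and EGR1 at 48H did not pass against CTRL (0.23, adjusted p = 0.261 and 0.24, adjusted p = 0.296), whereas ATF3 rose by 0.61 (adjusted p = 0.00425) and JUN by 0.26 (adjusted p = 0.00412). IER2, chosen after its values were seen, was the only factor of the list lower at 48H with an adjusted p under 0.05 (-0.18, adjusted p = 0.0368), and at 24H its value was -0.26 (adjusted p = 0.0942).

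**Figure D5:**
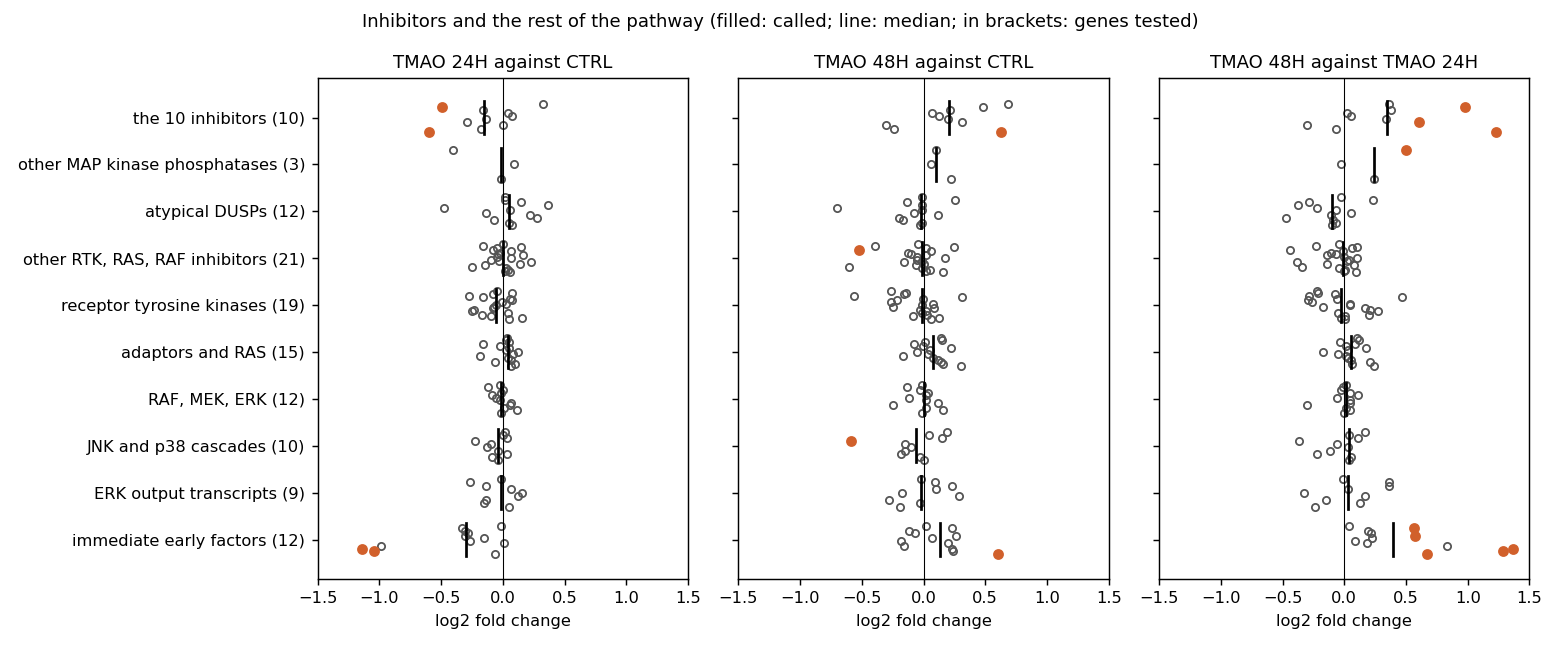
Log2 fold change of every tested gene of the 10 inhibitors and of the 9 pathway lists (rows) in the 3 contrasts (panels); filled points were called, black lines are medians and the number of genes tested is in brackets. The RAF, MEK and ERK genes stay close to 0 with no calls, and the immediate early factors lie to the left at 24H (median -0.30) and to the right at 48H against 24H (median 0.39).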

How the data were processed

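RNA-seq of 9 HMEC-1 libraries was analysed, 3 each for CTRL, 50 µM TMAO for 24H and 50 µM TMAO for 48H, grouped by their labels. With the nf-core RNAseq pipeline the authors had made estimated counts per gene, which were deposited without normalisation. The notes of the submitters name Trim Galore, while the quantifier, genome build, annotation and strand setting were not given in the sources used here. After rounding, edgeR 4.0.16 (R 4.3.3) was run with filterByExpr (14740 genes kept), TMM and a single quasi-likelihood fit to all 9 libraries without covariates (glmQLFit with legacy = FALSE), and Benjamini-Hochberg adjustment over all genes tested. Standard errors came from the F statistic. The study speaks in general of independent experiments, but the labels do not say which libraries came from separate cultures, so p-values measure only the spread between libraries, which may be technical. An exact permutation test of 3 libraries against 3 cannot go below p = 0.1. The biological coefficient of variation was 0.0744, and libraries of a group differed by more than sampling noise (chi-square per gene 3.48 to 13.3 over 9 pairs). At 48H replicate 1 differed more from replicates 2 and 3 (8.82 and 10.89) than these did from each other (4.70). The same held for replicate 3 in CTRL (10.25 and 9.12, against 3.48) and for replicate 1 at 24H (11.76 and 13.31, against 4.51).

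The 10 inhibitors and the 9 pathway lists were chosen with earlier results of these data known. Named genes were the 10 inhibitors, at most 4 genes per list called in any contrast with the largest log2 fold change, the 5 genes closest in pattern to each inhibitor called, and PECAM1, CDH5 and VWF; others are marked in the text. Transcript lengths and GC content came from GENCODE release 29, which matched 22588 of 29740 genes (76.0%) and 13241 of 14740 tested genes (89.8%). The fit was tested on simulated data. Alternatives were DESeq2 1.42.0, RLE factors, other filters, only the groups compared, the older quasi-likelihood fit, removal of ribosomal RNA genes, offsets for GC content and length, no fold threshold, the replicate number as a block, and leaving out each library in turn. Figures were drawn with matplotlib 3.10.9.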

Additional observations from a re-analysis of the deposited data

Results flagged for a closer look

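DUSP1, DUSP5, DUSP6 and SPRY2 were picked out because every 24H library lay below every control and every 48H library above. Their log2 fold changes between 48H and 24H were 1.23, 0.602, 0.334 and 0.976. These values come from the direct comparison of 48H with 24H and are a description: they are not used as a test of the difference, since the genes were chosen with it known. Both differences from CTRL share the same controls.

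Among the other pathway genes the direct test of 48H against 24H passed, at 1.4-fold or more, for 6, of which MYC was named above. The other 5 were DUSP8 (log2 fold change 0.503, edgeR adjusted p = 0.00447), FOS (1.37, adjusted p = 2.3e-05), EGR1 (1.28, adjusted p = 8.2e-05), ATF3 (0.671, adjusted p = 0.00195) and JUN (0.572, adjusted p = 9e-06). All 3 libraries at 48H exceeded all 3 at 24H for each of these 5 genes, as for 14.7% of all genes. The 5 were picked by this same comparison, so the lack of overlap adds nothing to it. With 3 libraries in a group, outlying libraries were not sought by a test.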

How the results depend on the processing

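Counts of called inhibitors at 24H, 48H and 48H against 24H were 2, 1 and 3, and those of other pathway genes were 2, 3 and 6. With no fold threshold they were 2, 5 and 5 for the inhibitors and 4, 18 and 21 for the pathway genes. At least 10 counts in every library, or removal of GC and length trends, each gave 2 inhibitors at 48H, because SPRY4 was added. Leaving out each library in turn gave 0 to 2 inhibitors at 24H, 1 to 2 at 48H and 3 to 3 at 48H against 24H, and 0 to 2, 2 to 4 and 5 to 7 pathway genes. At 24H DUSP1 was called in 3 of 6 such fits (lost without CTRL replicate 1, CTRL replicate 2 or TMAO 24H replicate 2) and SPRY2 in 2 of 6 (kept without CTRL replicate 1 or TMAO 24H replicate 1), while over the 6 fits their log2 fold changes were -0.64 to -0.53 and -0.54 to -0.45. DUSP5 and DUSP6 had an adjusted p under 0.05 at 48H in 2 of 6 fits each. Of 270 fold changes of the inhibitors under the other settings, 269 moved by less than the spread between replicates. The exception was SPRED1 at 48H against 24H (-0.0047 with GC and length trends removed). With a library left out, 180 of 180 moved by less than that spread. Leaving out 1 library of 3 can move a group mean by only part of the spread, so nothing is read from that count. Of 315 values of named pathway genes 302 kept their state as called or not called: EGR1 at 24H was lost in 3 of 6 left-out fits, FOS at 24H without TMAO 24H replicate 2 (adjusted p = 0.0599), MAPK13 at 48H in 4 of 6, RASAL3 at 48H went under 1.4-fold with GC and length trends removed (-0.41) or without TMAO 48H replicate 1 (-0.46), and DUSP8 at 48H against 24H without TMAO 24H replicate 1 (0.44). ATF3 at 24H, which was not called, changed sign without TMAO 24H replicate 3 (0.043, against -0.065 with all libraries). The cause of these changes was not tested.

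With the replicate number as a block (replicate block), 0 inhibitors, 1 other pathway gene and 1 gene in all were called at 24H (7 in all without the block), EGR1 had an adjusted p of 0.0686 and MAPK13 at 48H one of 0.0542, and no other count of calls given here changed by over 1.5 times. The labels do not say whether the numbers pair the libraries. Deviations of libraries with the same number correlated at -0.276 to 0.0853 (9 pairs), against -0.152 to 0.224 for different numbers (18 pairs). Each deviation is from a mean of 3 libraries, so these values are tied to one another and cannot decide whether the libraries are paired. Depth limits DUSP10 and SPRY4, with 26 to 47 and 40 to 99 counts per library.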
